A study of Homo sapiens with 4 samples.

Results

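The 42 genes described here are interferon-stimulated genes, and their chromatin was read from the 223 of 190348 ATAC-seq peaks that lay inside a member gene or within 10 kb of either end of one. Of these peaks, 220 held enough counts to be tested, and 3 did not. Every member had at least 1 tested peak, with 1 to 15 peaks per gene and a median of 6, and 28 peaks lay within 10 kb of 2 or more members, so neighbouring members share data. The genes were chosen as a functional group, with no measured value in the rule. In ATAC-seq the Tn5 transposase cuts accessible DNA and adds sequencing tags, so a count is a cut in open chromatin and not a transcript. The cells were LM2, a human breast cancer line selected from MDA-MB-231 for its tendency to colonise the lung. In 2 libraries CECR2 had been deleted with guide sg1 (the genotype CECR2 deletion 1), and 2 libraries came from cells with a nontargeting control. CECR2 is a bromodomain protein that partners ISWI nucleosome remodellers. Each library used 50000 cells, all grown as monolayers in serum-containing medium with puromycin, and no label names an added interferon or other stimulus. The deletion rests on 1 guide, and no source says whether the cells were a clone or a pool. Whether replicates came from different cultures is not stated either; every p-value therefore rests on a spread between libraries that may be purely technical.

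The sg1 libraries kept 43519018 and 38924086 counts and the control libraries 21002477 and 15561701, a depth ratio of 2.25. Left out were 109 peaks in the first 250 kb of chromosome 1, which held 25.4% of the counts in each sg1 library, against 18.0% and 17.9% in the control libraries. All 6 mesenchymal markers had a peak at a gene end, with VIM at a mean of 79.7 CPM in sg1 and 85.6 CPM in the control (CPM scales each library's kept counts to a common total, after TMM correction). Their summed level was 221 and 226 CPM in sg1 libraries and 220 and 232 CPM in control libraries. Of these 6 only EGFR was called, higher in sg1 (log2 fold change 0.35, edgeR adjusted p = 0.00264). Of 7 luminal markers, 6 had a gene-end peak, and ESR1 had none. The single peak shared by KRT8 and KRT18 was counted for each of them. The luminal list summed to 71.2 and 75.5 CPM in sg1 and to 61.2 and 68.5 CPM in the control. Only GATA3 was called in it, higher in sg1 (log2 fold change 0.76, edgeR adjusted p = 6.62e-04). All 5 haematopoietic markers also had a gene-end peak, summing to 101 and 102 CPM in sg1 and to 110 and 114 CPM in the control, with 2 of them lower in sg1 (CD3E and LAPTM5) and PTPRC near 0 at 0.470 CPM in sg1 and 0.862 CPM in the control. The part of these marker levels in the results at interferon-stimulated genes was not tested. At CECR2 itself, 1 of 5 tested peaks was called, with log2 fold changes from -0.61 to 0.45, which gave no check of the deletion.

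Interferons bind cell-surface receptors that signal through the kinases JAK1 and TYK2, and transcription factors then bind the interferon-stimulated response element (ISRE) in the promoters of responsive genes. The products sense viral RNA, degrade or mark foreign nucleic acid, block virus entry and budding, and, as the chemokines CXCL10 and CXCL11, attract T cells that carry the receptor CXCR3. Many are also expressed at a basal level in cells that have received no added interferon.

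Promoter sequences show the element that ties most members together. RefSeq windows (build GRCh38.p14), running from 250 bases before to 50 bases after a gene start, were given for 34 of the 42 members. The ISRE core, searched as a pair of GAAA repeats with 2 free bases between them, was present on either strand in 24 of the 34 (70.6%). Some members have several windows. By window the core was in 28 of 46 member windows (60.9%), against 3.57% of all 35116 windows. The gamma-activated site TTCNNNGAA was in 8 of 34 members, or 19.6% of member windows, and in 7.66% of all windows. The AP-1 motif TGANTCA was in 6 of 34 members, or 13.0% of member windows, and in 7.71% of all windows. A kappa B motif was in 3 of 34 members, or 6.52% of member windows, and in 1.91% of all windows. A second kappa B form, which is the run of capitals in the CXCL11 window with 1 base left free, was searched after the sequences had been read, and was in CXCL10, CXCL11 and OAS3 and in 0.439% of all windows. All were searched on both strands, the kappa B forms can match the same letters, and a match describes letters, not a bound site. The 7 windows printed here, 1 per gene, are those of the 6 members whose tallest promoter peak was called lower or higher in sg1 and covers a window with the ISRE core, and that of CXCL11, whose promoter peak had the largest fold change. Capitals mark every ISRE core on either strand and, in CXCL10 and CXCL11, the second kappa B form. The windows are chr15:88638766-88639065 on the plus strand for ISG20, chr4:76023448-76023747 on the minus strand for CXCL10, chr4:76036021-76036320 on the minus strand for CXCL11, chr2:162318635-162318934 on the minus strand for IFIH1, chr14:94110486-94110785 on the plus strand for IFI27, chr10:89414318-89414617 on the plus strand for IFIT5 and chr4:88456869-88457168 on the plus strand for HERC5. Each is written 5′ to 3′ in the direction of its gene.
ISG20: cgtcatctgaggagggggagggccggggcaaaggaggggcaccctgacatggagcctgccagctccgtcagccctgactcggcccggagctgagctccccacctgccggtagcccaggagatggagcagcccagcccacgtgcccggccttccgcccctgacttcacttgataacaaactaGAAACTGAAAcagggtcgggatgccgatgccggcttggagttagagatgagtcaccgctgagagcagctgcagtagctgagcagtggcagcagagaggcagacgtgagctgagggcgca
CXCL10: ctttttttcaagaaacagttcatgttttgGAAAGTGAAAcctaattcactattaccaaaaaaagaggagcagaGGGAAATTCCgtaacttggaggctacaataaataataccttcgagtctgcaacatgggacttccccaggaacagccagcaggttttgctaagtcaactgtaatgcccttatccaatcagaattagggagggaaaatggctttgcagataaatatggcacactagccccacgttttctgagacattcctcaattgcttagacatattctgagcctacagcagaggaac
CXCL11: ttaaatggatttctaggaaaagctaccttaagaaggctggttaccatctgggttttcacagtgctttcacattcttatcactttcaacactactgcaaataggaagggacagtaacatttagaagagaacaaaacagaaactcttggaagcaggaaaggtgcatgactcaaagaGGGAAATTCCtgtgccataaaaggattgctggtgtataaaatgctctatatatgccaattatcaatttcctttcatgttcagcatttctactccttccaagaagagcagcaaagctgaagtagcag
IFIH1: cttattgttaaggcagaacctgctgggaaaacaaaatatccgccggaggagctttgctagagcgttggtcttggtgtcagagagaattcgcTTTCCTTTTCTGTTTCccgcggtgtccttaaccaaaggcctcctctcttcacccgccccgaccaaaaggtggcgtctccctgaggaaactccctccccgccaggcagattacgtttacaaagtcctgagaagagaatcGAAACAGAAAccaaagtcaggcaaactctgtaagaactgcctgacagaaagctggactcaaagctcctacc
IFI27: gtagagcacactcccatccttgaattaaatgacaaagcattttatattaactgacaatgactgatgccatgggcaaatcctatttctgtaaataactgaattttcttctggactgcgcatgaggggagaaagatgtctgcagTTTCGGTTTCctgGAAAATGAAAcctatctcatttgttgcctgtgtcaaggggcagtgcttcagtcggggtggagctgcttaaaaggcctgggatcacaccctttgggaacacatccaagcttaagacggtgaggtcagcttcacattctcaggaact
IFIT5: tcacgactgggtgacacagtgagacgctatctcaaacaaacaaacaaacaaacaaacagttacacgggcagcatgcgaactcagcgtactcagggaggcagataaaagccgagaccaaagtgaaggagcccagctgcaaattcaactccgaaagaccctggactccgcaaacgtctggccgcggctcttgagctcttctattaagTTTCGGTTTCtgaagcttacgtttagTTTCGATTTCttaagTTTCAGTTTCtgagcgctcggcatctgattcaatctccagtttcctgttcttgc
HERC5: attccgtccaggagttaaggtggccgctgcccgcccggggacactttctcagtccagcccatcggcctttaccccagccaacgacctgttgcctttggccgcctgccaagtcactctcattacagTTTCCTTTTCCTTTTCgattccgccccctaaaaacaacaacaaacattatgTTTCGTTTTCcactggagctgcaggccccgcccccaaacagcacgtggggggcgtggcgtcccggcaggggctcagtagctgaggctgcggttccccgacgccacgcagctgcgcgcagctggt

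The ISRE core of ISG20 began 69 bases before the gene start. In CXCL10 the core began 221 bases and the kappa B form 177 bases before the start, and in CXCL11 the same 10 letters of the kappa B form began 76 bases before the start, with no ISRE core in the window. IFIT5 held 3 cores within 45 bases of its start, and IFIH1 held 2 overlapping cores, from 159 and 153 bases before the start, and another 21 bases before it. Promoters with the core went both ways. The tallest promoter peaks of CXCL10, IFIH1 and ISG20 were lower in sg1, and those of IFI27, IFIT5 and HERC5 higher. These were the only calls among 22 members with the core under that peak, whose median log2 fold change was 0.01. The 10 members without it had 4 lower and 0 higher, with RSAD2 and CMPK2 sharing a peak. Of all tested peaks in promoter windows near protein-coding genes, 7.85% were lower and 29.8% higher. A second start of RSAD2, in a weaker peak that was also called lower, has the core in its window too.

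The interferon-stimulated genes did not move as a block in the sg1 libraries. Of their 220 tested peaks, 35 were lower in sg1 (15.9%, against a background of 16.8% of all 184717 tested peaks) and 19 were higher (8.64%, against 11.5%), by edgeR's quasi-likelihood test with Benjamini-Hochberg adjustment over all peaks at an FDR of 0.05. Together 24.5% were called, against 28.3% of all peaks, so the overall share lay near the background and is no result about these genes. The median log2 fold change, sg1 over control, was 0.02, the same as over all tested peaks, with a range from -4.28 to 1.56. Of the 54 called peaks, 53 had both sg1 libraries on one side of both control libraries, as had 57.7% of the tested member peaks and 63.7% of all peaks. A lower count can mean fewer cells with a site open or less cutting at the site per cell, and bulk libraries cannot tell these apart. Called lower peaks had a median level of 3.70 CPM in sg1 and 5.83 CPM in the control, and called higher peaks 5.53 CPM in sg1 and 3.59 CPM in the control.

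The counts moved with depth and with single libraries. With all libraries thinned to the shallowest, member calls came to 23 lower and 9 higher. Of all peaks tested after thinning, 14.2% were lower and 9.27% higher. Leaving out an sg1 library also reduced the member calls. DESeq2 called 20 lower and 3 higher, against 9.68% lower and 4.52% higher of all tested peaks, and all 23 were among the edgeR calls. With library size in place of TMM scaling the split was 29 lower and 25 higher, so that 46.3% of calls were higher, against 35.2% under TMM. Over all peaks 46.8% of calls were higher with library size and 40.7% under TMM, so the share moved the same way there.

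**Figure D1:**
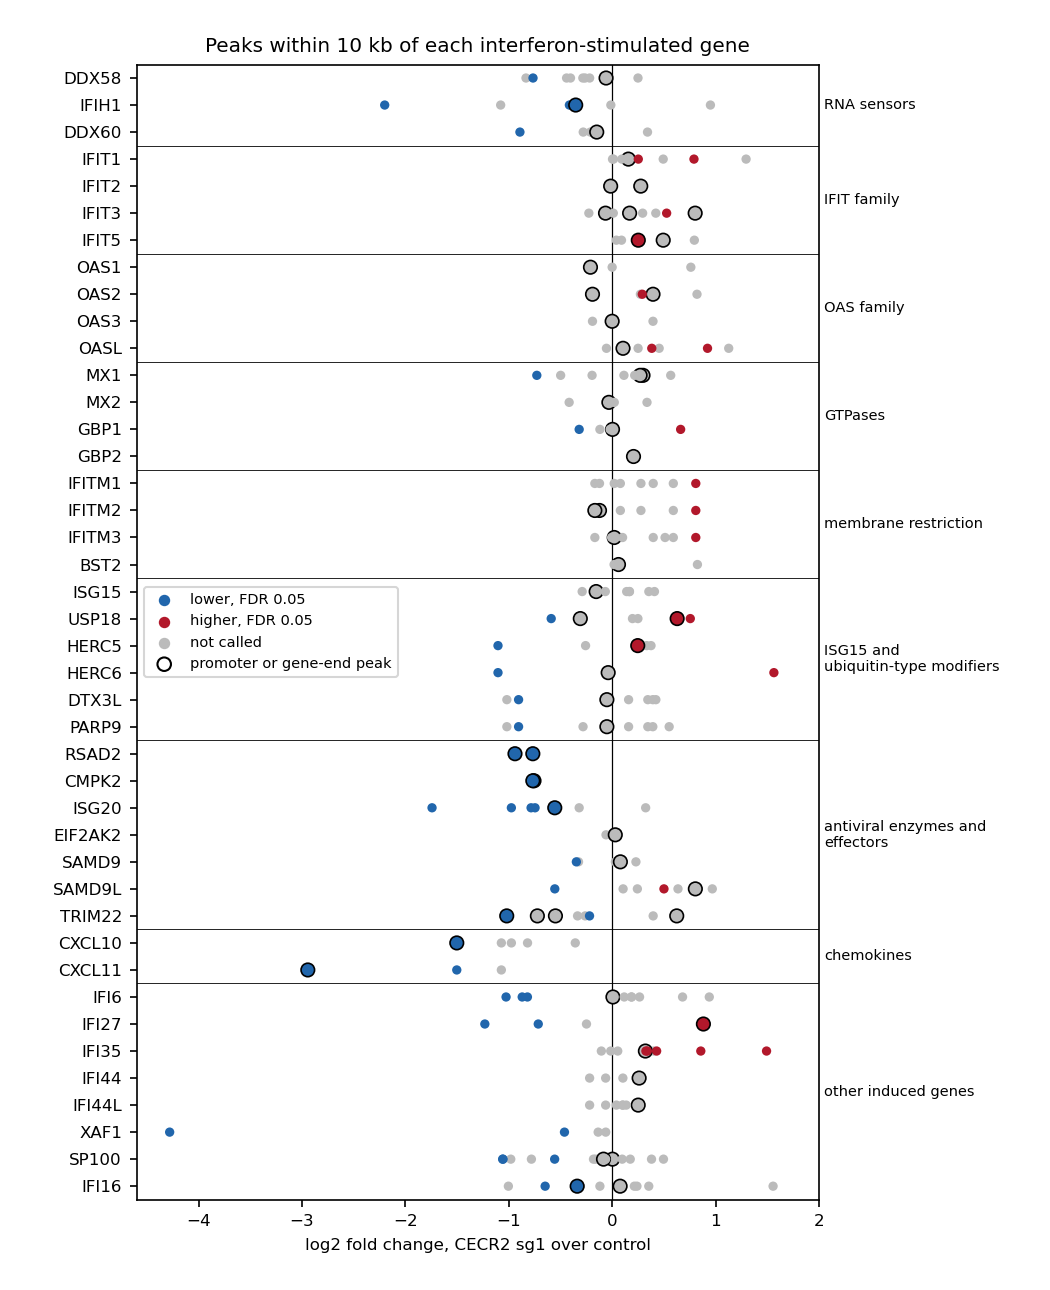
Each point is a tested peak inside or within 10 kb of the gene named on the left, placed by its log2 fold change (CECR2 sg1 over control), with blue for lower, red for higher and grey for not called at an FDR of 0.05, and a black outline for a promoter or gene-end peak. The chemokine and RNA sensor genes hold no red point and the IFIT and OAS families no blue one; the farthest point is the XAF1 peak at -4.28.

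By gene, 17 members had lower peaks and no higher one, 9 had higher peaks and no lower one, 6 had both, and 10 had no called peak. A gene with more peaks has more chances of a call. No matching division over all genes is given here, so these counts are no result about the members. The 10 without a call were ISG15, IFI44, IFI44L, IFIT2, MX2, OAS1, OAS3, BST2, GBP2 and EIF2AK2. The 6 with calls in both directions were IFI27, USP18, HERC5, HERC6, SAMD9L and GBP1. Beyond a 2-fold change lay 11 lower peaks and 2 higher peaks, with no matching count over all peaks given here. Of the 54 called peaks, 14 overlapped another protein-coding gene, which is named beside the peaks whose library values are given.

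In promoter windows over all genes, higher calls outnumbered lower ones, while the members held more lower than higher calls under TMM and equal numbers with library-size scaling. Windows of any gene were counted here, and 2 called member peaks lay in a window of no member. Of 44 tested member peaks in promoter windows, 8 were lower (18.2%) and 4 higher (9.09%) in sg1. Their median log2 fold change was 0.01. Of 12987 tested peaks in promoter windows near any protein-coding gene, 7.85% fell and 29.8% rose in sg1, and the median was 0.16. Away from promoter windows the shares were closer, with 27 of 176 member peaks lower (15.3%) and 15 higher (8.52%), against 16.5% lower and 10.1% higher of the 106473 other peaks near genes. DESeq2 called 4 of the 44 promoter peaks lower and 0 higher, against 4.66% lower and 15.6% higher of all promoter windows. Member calls in promoter windows came to 4 lower and 2 higher without sg1 replicate 1, 4 and 0 without sg1 replicate 2, and 4 and 3 without control replicate 1. They were 6 and 6 with library-size scaling, 6 and 5 with a loess offset and 4 and 3 after thinning. Over 13 other settings the member share ran from 9.09% to 18.2% lower and from 0% to 13.6% higher, and the share of all promoter windows from 4.23% to 7.95% lower and from 15.6% to 36.6% higher. The difference between members and other genes was described and not tested.

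**Figure D2:**
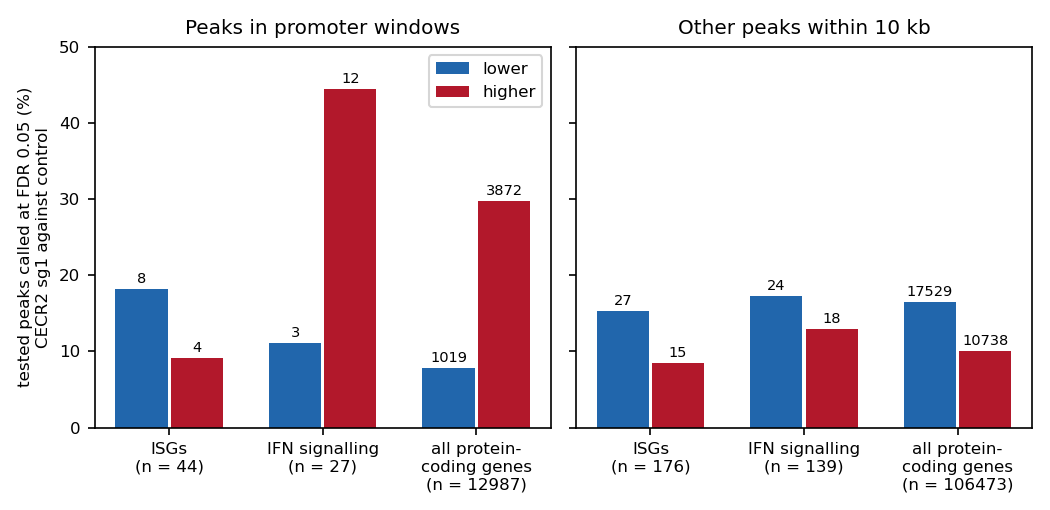
Bars give the percent of tested peaks called lower (blue) or higher (red) in CECR2 sg1 against control at an FDR of 0.05, in promoter windows on the left and in other peaks within 10 kb on the right, with the number of called peaks above each bar. Promoter windows of any gene are counted. In them interferon-stimulated genes (ISGs) show 18.2% lower and 9.09% higher, against 7.85% lower and 29.8% higher over all protein-coding genes. Interferon (IFN) signalling genes show 11.1% lower and 44.4% higher.

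A promoter or gene-end peak was present for 40 of the 42 members, as 38 different peaks, and IFITM1 and XAF1 had none. In the control these tallest promoter peaks ran from 2.83 CPM per kb at IFI27 to 57.3 CPM per kb at ISG20, with a median of 13.4 CPM per kb. For 8 members the peak was lower in sg1, for 4 it was higher, and for the others it did not pass the test. These others included the promoters of ISG15 (log2 fold change -0.15, SE 0.09, edgeR adjusted p = 0.204), which encodes the ubiquitin-like modifier, and IFI6 (0.01, SE 0.10, adjusted p = 0.966).

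**Figure D3:**
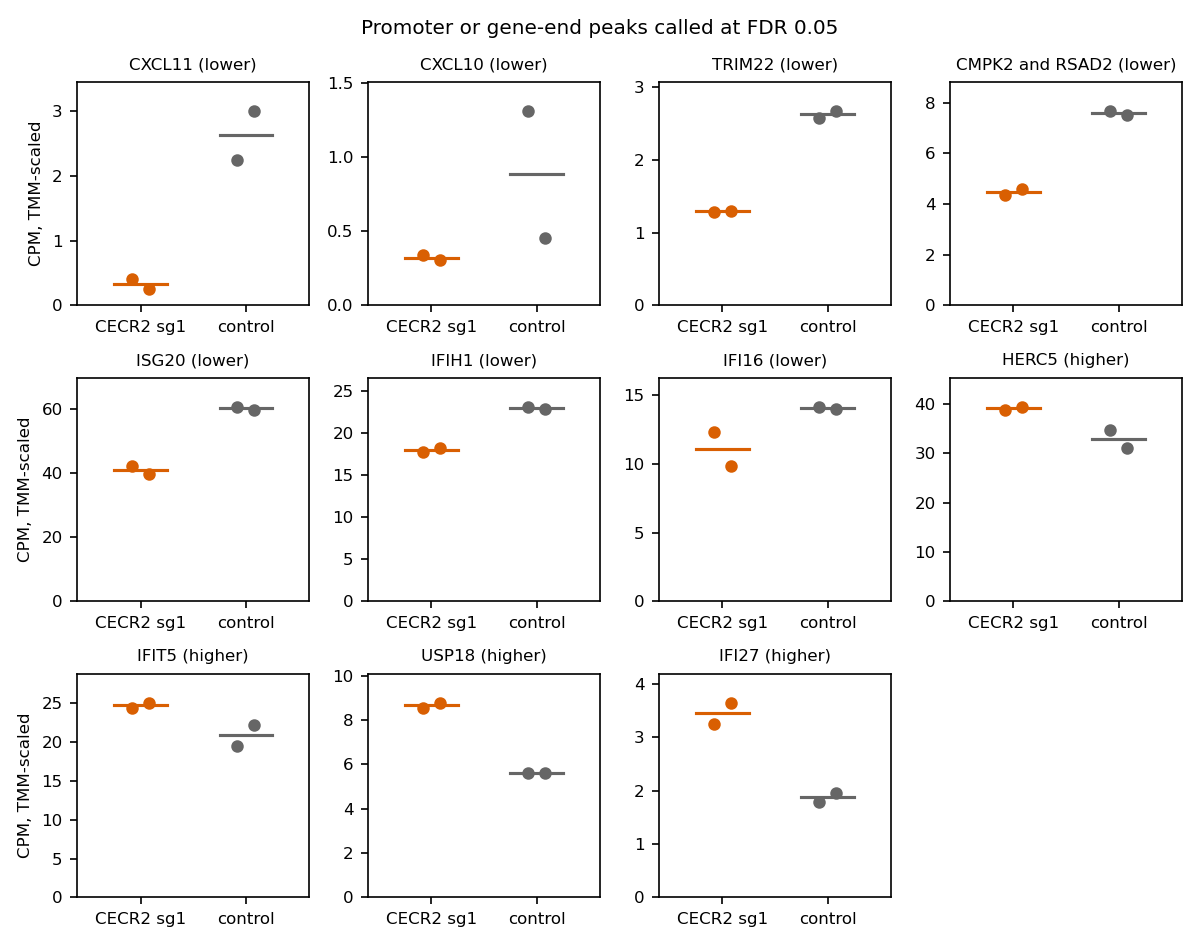
Points are single libraries and lines are group means, in CPM after TMM scaling on axes that start at 0, for the 11 promoter or gene-end peaks called at an FDR of 0.05, with CECR2 sg1 left of the control in each panel. In every panel both sg1 libraries lie on one side of both control libraries; CXCL11 shows the largest fold difference (log2 fold change -2.94), and the control libraries of CXCL10 lie apart from each other, at 1.31 and 0.457 CPM.

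The chemokines had the lowest median of the role groups. CXCL10 and CXCL11 are neighbours on chromosome 4 and attract CXCR3-bearing T cells. All 6 tested peaks near them had negative log2 fold changes, with a median of -1.02, and 2 of the 6 were called lower (33.3%, against 16.8% of all tested peaks). The promoter peak of CXCL11 at chr4:76035897-76036317, which also lies over ART3, had 18 and 10 counts in sg1 libraries, at 0.407 and 0.254 CPM, against 46 and 46 counts in control libraries, at 2.24 and 3.0 CPM. The groups did not overlap, although the sg1 libraries were the deeper ones. The log2 fold change was -2.94 (SE 0.37, edgeR adjusted p = 2.12e-07), and the call was kept in every setting tried, with values from -3.32 to -2.64. At the CXCL10 promoter, chr4:76023437-76023689, which lies over ART3 too and within 10 kb of CXCL11, sg1 libraries had 0.339 and 0.304 CPM and control libraries 1.31 and 0.457 CPM. Both sg1 libraries were lower, but control replicate 2 lay near them. The log2 fold change was -1.50 (SE 0.50, edgeR adjusted p = 0.0223). This call rested on single libraries: the adjusted p was 0.687 without control replicate 1, with a log2 fold change of -0.50, then 0.118 without sg1 replicate 1, 0.151 without sg1 replicate 2 and 0.199 in DESeq2.

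Among the RNA sensors 5 of 21 tested peaks were lower (23.8%, against 16.8% of all tested peaks) and 0 higher (against 11.5%) in sg1, with 18 negative values and a median of -0.28. DESeq2 called 3 lower and 0 higher, and without sg1 replicate 1 the count was 2 lower. At unadjusted p below 0.05, 6 of the 21 were lower and 0 higher. A peak inside DDX58 (chr9:32502341-32503016), the gene of the RNA helicase RIG-I, was at 14.0 and 13.3 CPM in sg1 libraries and at 25.3 and 20.9 CPM in control libraries. Both sg1 values were below both control values, and the log2 fold change was -0.77 (SE 0.10, adjusted p = 3.45e-07). The DDX58 promoter did not pass, at 22.5 and 22.7 CPM in sg1 and 23.5 and 23.7 CPM in the control (adjusted p = 0.649). IFIH1, which encodes the long-RNA sensor MDA5, was lower at 3 of 6 peaks. Its weak peak inside the gene at chr2:162293435-162293691 was at 0.339 and 0.330 CPM in sg1 and at 1.65 and 1.44 CPM in the control. The log2 fold change of -2.20 (SE 0.42, edgeR adjusted p = 1.23e-04) kept its call in every setting tried. The tall IFIH1 promoter peak at chr2:162317770-162319165, which also covers the start of GCA, was at 17.8 and 18.2 CPM in sg1 and at 23.1 and 22.8 CPM in the control. The replicates of each group lay close together and the groups apart, with a log2 fold change of -0.35 (SE 0.09, adjusted p = 0.00305), and the adjusted p was 0.0697 without sg1 replicate 1. The remaining IFIH1 call, 5095 bp beyond the gene at chr2:162261123-162261979, had a log2 fold change of -0.41 (adjusted p = 0.00804); the adjusted p was 0.126 without sg1 replicate 1, 0.199 without control replicate 1, 0.133 after thinning and 0.0780 in DESeq2. DDX60, a helicase that assists RIG-I-like sensing, had 1 lower call, at chr4:168304828-168305393, with 1.20 and 2.36 CPM in sg1 and 4.62 and 1.70 CPM in the control. This was the only called member peak whose groups overlapped, and without control replicate 1 the log2 fold change was 0.05 (adjusted p = 0.941). Without sg1 replicate 1 its adjusted p was 0.388, and after thinning 0.297.

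Antiviral enzymes and effectors held 11 lower (33.3%) and 1 higher (3.03%) of 33 tested peaks, against 16.8% lower and 11.5% higher of all tested peaks, with a median of -0.26. Lower calls came to 5 without sg1 replicate 1, 6 without sg1 replicate 2 and 7 in DESeq2, where 10.5%, 10.4% and 9.68% of all peaks were lower. ISG20, an exonuclease that degrades single-stranded RNA, accounted for 5 of them. Its intragenic peak at chr15:88649159-88649757 was at 5.81 and 4.67 CPM in sg1 libraries and at 17.2 and 18.1 CPM in control libraries. The sg1 libraries were far below the controls, with a log2 fold change of -1.74 (SE 0.13, adjusted p = 2.24e-12). The ISG20 promoter peak, chr15:88638274-88639324, was at 42.4 and 39.6 CPM in sg1 and at 60.8 and 59.7 CPM in the control. It was the tallest member promoter per kb, at 39.0 CPM per kb in sg1 and 57.3 CPM per kb in the control, and its log2 fold change was -0.56 (SE 0.07, adjusted p = 5.38e-08). Both calls held in every setting tried. The other 3 called peaks started at 88629930, over the neighbouring gene AEN, 88648692 and 88659271 on chromosome 15, with log2 fold changes from -0.97 to -0.75. ISG20 kept 4 lower calls without sg1 replicate 1, sg1 replicate 2 or control replicate 1, 5 without control replicate 2 and in DESeq2, and 3 after thinning.

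RSAD2, which encodes the radical-SAM enzyme viperin, and CMPK2, a mitochondrial nucleotide kinase, are divergent neighbours that share a promoter peak. This peak, chr2:6865282-6866361, was at 4.34 and 4.59 CPM in sg1 and at 7.68 and 7.50 CPM in the control. The 2 values within each group lay close together, and the log2 fold change was -0.77 (SE 0.17, adjusted p = 6.33e-04), a call kept in every setting tried. No ISRE core was found in the windows of either gene that this peak covers. A second start of RSAD2, at chr2:6877457-6877888, was weaker, at 1.08 and 0.812 CPM in sg1 and at 1.94 and 1.70 CPM in the control (log2 fold change -0.94, adjusted p = 0.0286). Its adjusted p was 0.0649 without sg1 replicate 1, 0.254 without sg1 replicate 2, 0.131 without control replicate 1, 0.141 after thinning and 0.189 in DESeq2. TRIM22, a ubiquitin ligase that restricts retroviruses, had a gene-end peak at chr11:5689649-5689892 with 1.29 and 1.29 CPM in sg1 and 2.58 and 2.67 CPM in the control. Its log2 fold change was -1.02 (SE 0.28, adjusted p = 0.00550), and the adjusted p was 0.0541 without sg1 replicate 1, 0.0511 without sg1 replicate 2 and 0.0595 in DESeq2. EIF2AK2, the RNA-activated kinase PKR, had 0 of 3 peaks called in edgeR, 0 at an unadjusted p below 0.05 and 0 in DESeq2. Of the growth-restricting genes SAMD9 and SAMD9L, SAMD9 had 1 lower call and SAMD9L 1 lower and 1 higher. The lower SAMD9L peak, chr7:93156679-93157473, had a log2 fold change of -0.55 (adjusted p = 0.00166), with an adjusted p of 0.108 without sg1 replicate 1, and was the only call of the 3 that DESeq2 made. The other calls were lost without sg1 replicate 1 (adjusted p = 0.276 for SAMD9 and 0.346 for SAMD9L), sg1 replicate 2 (0.118 and 0.0797) or control replicate 2 (0.112 and 0.147), and in DESeq2 (0.163 and 0.206). The SAMD9L one was also lost without control replicate 1 (0.0583) and after thinning (0.230), and the SAMD9 one with library-size scaling (0.0596) or a loess offset (0.0564).

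**Figure D4:**
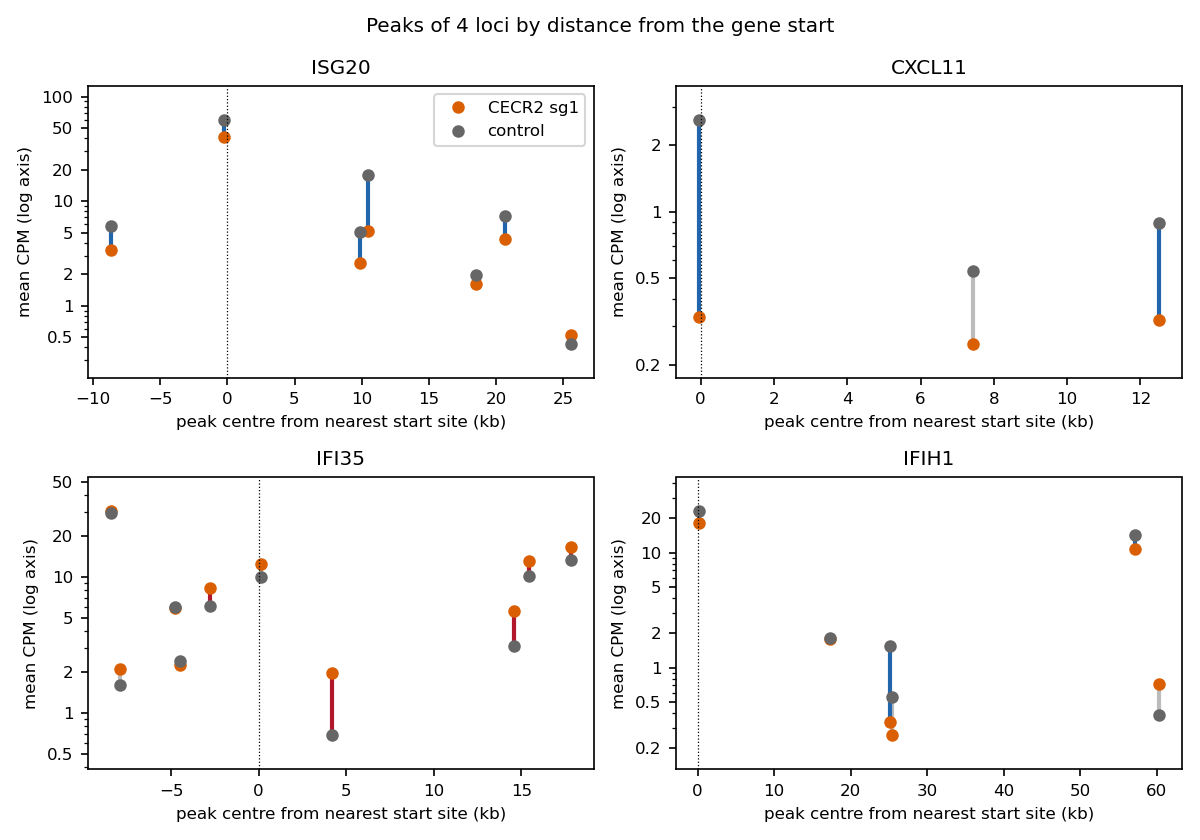
Mean CPM (log axis) of every tested peak near ISG20, CXCL11, IFI35 and IFIH1, against the distance of the peak centre from the nearest gene start in kb, with orange for CECR2 sg1 and grey for control; a blue, red or grey bar joins the means of a peak called lower, called higher or not called. Lower peaks of ISG20 lie on both sides of its start, and the higher peaks of IFI35 lie before its start, in the gene and beyond it.

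The IFIT and OAS families held 3 higher calls each and no lower one. IFIT proteins bind the ends of viral RNA, and 3 of 21 tested peaks near IFIT1, IFIT2, IFIT3 and IFIT5 were higher (14.3%, near the 11.5% of all tested peaks) and 0 lower (against 16.8%), with a median of 0.17. The IFIT5 promoter peak at chr10:89414401-89415702, shared with the LIPA gene and within 10 kb of IFIT1, was at 24.4 and 25.0 CPM in sg1 and at 19.5 and 22.2 CPM in the control. Both sg1 libraries were higher, by a log2 fold change of 0.25 (SE 0.09, adjusted p = 0.0316). The adjusted p was 0.102 without sg1 replicate 1, 0.166 without sg1 replicate 2, 0.298 without control replicate 1 and 0.157 in DESeq2. A peak inside IFIT1 at chr10:89392969-89393314, also over LIPA, was at 3.48 and 2.54 CPM in sg1 and at 1.41 and 2.15 CPM in the control (log2 fold change 0.79, SE 0.27, adjusted p = 0.0281). Its adjusted p was 0.330 without sg1 replicate 1, 0.273 without control replicate 1, 0.101 after thinning and 0.182 in DESeq2. OAS enzymes make the oligoadenylates that activate RNase L, and 3 of 15 tested peaks were higher (against 11.5% of all tested peaks) and 0 lower (against 16.8%), with a median of 0.29. A peak inside OAS2 at chr12:113006686-113007683 was at 30.5 and 28.5 CPM in sg1 and at 26.4 and 21.5 CPM in the control. Its log2 fold change was 0.29 (SE 0.09, adjusted p = 0.0121), with adjusted p-values of 0.120 without sg1 replicate 1, 0.178 without control replicate 2 and 0.0726 in DESeq2. Near OASL, the peak at chr12:121046590-121047041 was at 2.58 and 2.56 CPM in sg1 and at 1.6 and 1.04 CPM in the control (log2 fold change 0.92, SE 0.29, adjusted p = 0.0146). The adjusted p was 0.0707 without sg1 replicate 1, 0.0638 without sg1 replicate 2, 0.105 without control replicate 2, 0.0715 after thinning and 0.118 in DESeq2. DESeq2 called 0 peaks of either family. At an unadjusted p below 0.05, edgeR found 5 higher and 0 lower IFIT peaks and 6 higher and 1 lower OAS peaks. Without sg1 replicate 1 it called 0 in each family, without sg1 replicate 2 it called 1 in each, without control replicate 1 it called 0 IFIT and 2 OAS peaks, and after thinning it called 1 in each.

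Virus-restricting GTPases and membrane proteins held 4 calls in all. MX1 and MX2 trap viral nucleocapsids and GBP1 and GBP2 act at pathogen membranes; among 18 tested peaks 2 fell and 1 rose (16.7% called, against 28.3% of all tested peaks), and the median was 0.01. Without sg1 replicate 1 or sg1 replicate 2, and in DESeq2, 0 of these 18 were called. A peak 1758 bp beyond MX1 at chr21:41460972-41461551 was at 2.03 and 1.90 CPM in sg1 and at 3.94 and 2.48 CPM in the control (log2 fold change -0.73, SE 0.25, adjusted p = 0.0297). The spread between the control libraries was wide, and the adjusted p was 0.116 without sg1 replicate 1, 0.176 without sg1 replicate 2, 0.50 without control replicate 1, 0.282 after thinning and 0.188 in DESeq2. A peak inside GBP1 at chr1:89064160-89064607 was at 3.82 and 3.91 CPM in sg1 and at 2.14 and 2.80 CPM in the control (log2 fold change 0.66, SE 0.23, adjusted p = 0.0293). That call was lost without sg1 replicate 1 (adjusted p = 0.122), sg1 replicate 2 (0.143) or control replicate 1 (0.243), after thinning (0.0562) and in DESeq2 (0.170). Of 14 peaks near IFITM1, IFITM2, IFITM3, which block virus entry, and BST2, which tethers budding virus, 1 was higher (7.14%, against 11.5%) and 0 lower (against 16.8%). This peak, chr11:318447-318682, lies within 10 kb of all 3 IFITM genes, whose similar sequences can share reads, and was at 2.10 and 2.92 CPM in sg1 and at 1.31 and 1.57 CPM in the control. The log2 fold change was 0.81 (SE 0.29, adjusted p = 0.0340), with adjusted p-values of 0.345 without sg1 replicate 2, 0.160 without control replicate 1, 0.0609 after thinning and 0.200 in DESeq2.

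ISG15 and the enzymes that attach or remove ubiquitin-type modifiers had calls in both directions, 3 lower (10.0%, against 16.8% of all tested peaks) and 4 higher (13.3%, near the 11.5% of all) of 30 tested peaks, with a median of 0.17. Leaving out libraries moved these counts, to 2 lower and 3 higher without sg1 replicate 1, 1 and 1 without sg1 replicate 2, 0 and 5 without control replicate 1 and 3 and 2 without control replicate 2. ISG15 itself had 0 of 8 peaks called in edgeR, 0 at an unadjusted p below 0.05 and 0 in DESeq2, but 2 called higher without control replicate 1. USP18, which removes ISG15 from proteins and restrains the interferon receptor, was higher at its gene-end peak, chr22:18149449-18150344, with 8.54 and 8.78 CPM in sg1 and 5.59 and 5.61 CPM in the control. The replicates of each group almost coincided, and the log2 fold change of 0.63 (SE 0.15, adjusted p = 0.00217) kept its call in every setting tried. Inside the gene, the peak at chr22:18157165-18157797 was lower, at 6.98 and 6.90 CPM in sg1 and at 12.2 and 8.41 CPM in the control (log2 fold change -0.59, SE 0.15, adjusted p = 0.00317). Without control replicate 1 its log2 fold change was -0.28 (adjusted p = 0.286). USP18 has near-identical copies nearby on chromosome 22, so reads may have been placed among them. HERC5, the main ligase for ISG15, had a higher promoter peak at chr4:88456284-88457810, with 38.8 and 39.4 CPM in sg1 and 34.7 and 31.0 CPM in the control. The log2 fold change was 0.25 (SE 0.07, adjusted p = 0.0120), with adjusted p-values of 0.0533 without sg1 replicate 1, 0.0760 without sg1 replicate 2, 0.0948 without control replicate 2 and 0.0601 in DESeq2. Between HERC6 and HERC5, the weak peak at chr4:88447313-88447682 was lower (0.384 and 0.735 CPM in sg1, against 1.22 and 1.17 CPM in the control, log2 fold change -1.10, SE 0.42, adjusted p = 0.0452). Each of the 4 libraries left out in turn ended that call, with adjusted p-values from 0.0509 to 0.415, as did DESeq2 (0.249), thinning (0.141) and library-size scaling (0.0541). Upstream of HERC6, chr4:88369311-88369545 was higher, at 0.542 and 1.14 CPM in sg1 and at 0.243 and 0.326 CPM in the control (log2 fold change 1.56, SE 0.55, adjusted p = 0.0303). Its adjusted p was 0.495 without sg1 replicate 2, 0.132 without control replicate 1 and 0.210 in DESeq2. PARP9 and DTX3L, partners that share a promoter, had 1 lower peak between them at chr3:122555336-122555721 (log2 fold change -0.91, adjusted p = 0.0225), with an adjusted p of 0.273 without sg1 replicate 2, 0.409 without control replicate 1 and 0.168 in DESeq2.

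The remaining induced genes held 12 lower (19.4%) and 6 higher (9.68%) of 62 tested peaks, near the 16.8% and 11.5% of all tested peaks, with a median of 0.05. Higher calls came to 3 without sg1 replicate 1 and 2 without sg1 replicate 2, where 10 and 8 lower calls were left. The largest change of all member peaks lay 5318 bp beyond XAF1, a pro-apoptotic partner of the caspase inhibitor XIAP, at chr17:6780965-6781313, over the neighbouring gene FBXO39. It held 4 and 7 counts in sg1 libraries, at 0.0904 and 0.178 CPM, against 76 and 22 counts in control libraries, at 3.69 and 1.44 CPM. The peak was almost empty in sg1 and uneven between the controls, with a log2 fold change of -4.28 (SE 0.48, adjusted p = 1.98e-08). It was called in every setting tried, with values from -5.10 to -3.41. A second XAF1 peak, 2530 bp before the gene at chr17:6752440-6752917, was at 18.1 and 19.5 CPM in sg1 and at 25.8 and 26.0 CPM in the control (log2 fold change -0.46, SE 0.09, adjusted p = 1.26e-04), and was also called in every setting tried. IFI35, a protein released as an inflammatory signal, was the member with most higher calls, 5 of 10 tested peaks, and none lower. In its gene body, chr17:43010824-43011138 was at 1.97 and 1.95 CPM in sg1 and at 0.778 and 0.587 CPM in the control. The sg1 libraries were both above the controls, with a log2 fold change of 1.49 (SE 0.35, adjusted p = 0.00127) that kept its call in every setting tried. The peak at chr17:43021119-43021553, over VAT1, was at 5.72 and 5.58 CPM in sg1 and at 3.16 and 3.07 CPM in the control (log2 fold change 0.86, SE 0.20, adjusted p = 0.00115), also called in every setting tried. The other 3 calls had log2 fold changes from 0.33 to 0.43, and IFI35 kept 2 calls without sg1 replicate 1, without sg1 replicate 2 and in DESeq2, and 3 without control replicate 2. The IFI35 promoter itself was at 13.3 and 11.6 CPM in sg1 and at 9.72 and 10.3 CPM in the control, just outside the threshold (log2 fold change 0.32, adjusted p = 0.0501).

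IFI27, a mitochondrial protein strongly induced by interferon, changed in both directions. Its promoter peak, chr14:94110529-94111192, was at 3.25 and 3.65 CPM in sg1 and at 1.80 and 1.96 CPM in the control, with a log2 fold change of 0.88 (SE 0.25, adjusted p = 0.00697). The adjusted p was 0.0816 without sg1 replicate 2, 0.0691 in DESeq2 and 0.0696 after thinning. Upstream, over IFI27L1, chr14:94100699-94101376 was lower, at 11.4 and 9.21 CPM in sg1 and at 17.1 and 16.9 CPM in the control (log2 fold change -0.71, SE 0.12, adjusted p = 1.32e-05), and kept its call in every setting tried. Downstream, chr14:94120962-94121255 was lower at 0.339 and 0.507 CPM in sg1 and 0.729 and 1.30 CPM in the control (log2 fold change -1.23, SE 0.46, adjusted p = 0.0433). Its adjusted p was 0.310 without sg1 replicate 1, 0.105 without sg1 replicate 2, 0.330 without control replicate 2, 0.230 in DESeq2 and 0.0509 with library-size scaling. IFI6, which blocks apoptosis at mitochondria, had 3 lower peaks downstream of the gene while its promoter was not called. The farthest of them, chr1:27656160-27656433, was at 1.79 and 1.93 CPM in sg1 and at 3.50 and 4.11 CPM in the control (log2 fold change -1.03, SE 0.24, adjusted p = 0.00138). It was called in every setting tried.

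SP100, a scaffold of nuclear bodies that silences viral genomes, was lower at 3 of 14 tested peaks, all inside the gene. This share of 21.4% lay near the 16.8% of all tested peaks. At chr2:230472613-230473059 sg1 libraries had 1.58 and 1.47 CPM and control libraries 3.01 and 3.39 CPM (log2 fold change -1.06, SE 0.26, adjusted p = 0.00204). Another intragenic peak, chr2:230520732-230521165, had 2.21 and 1.65 CPM in sg1 and 4.42 and 3.59 CPM in the control (log2 fold change -1.06, SE 0.24, adjusted p = 0.00102). Both peaks were called in every setting tried. IFI16, a sensor of foreign DNA, was lower at 2 of 12 peaks (16.7%, near the 16.8% of all tested peaks). Its promoter peak at chr1:159009731-159010431 was at 12.3 and 9.87 CPM in sg1 and at 14.1 and 14.0 CPM in the control (log2 fold change -0.34, SE 0.12, adjusted p = 0.0328). The 2 sg1 libraries differed from each other, and the adjusted p was 0.512 without sg1 replicate 2, 0.0759 without control replicate 1, 0.181 in DESeq2, 0.148 after thinning, 0.0666 with library-size scaling and 0.0611 with a loess offset. The peak inside IFI16 at chr1:159015511-159015831 was at 5.99 and 6.42 CPM in sg1 and at 10.5 and 8.81 CPM in the control (log2 fold change -0.65, SE 0.15, edgeR adjusted p = 0.00106). It was called in every setting tried. IFI44 and IFI44L had 0 of their peaks called in edgeR or DESeq2, and 0 at an unadjusted p below 0.05.

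Genes that carry the interferon signal were read in the same way. They were 26 receptors, kinases, transcription factors, nucleic acid sensors and inhibitors, with 168 peaks within 10 kb; IFNB1 had no peak within 10 kb. Of 166 tested peaks, 27 were lower in sg1 (16.3%, near the 16.8% of all tested peaks) and 30 higher (18.1%, against 11.5%). The median was 0.11. Promoter windows of any gene are counted next, such as that of IL23A at a lower peak near STAT2. In promoter windows 3 of 27 were lower and 12 higher (44.4%), against 29.8% of all promoter windows. Over the other settings the higher share ran from 22.2% to 48.1%, and that of all promoter windows from 15.6% to 36.6%. Leaving out an sg1 library reduced the higher calls near signalling genes, as it did over all tested peaks. DESeq2 called 11 of the 166 peaks higher, against 4.52% of all tested peaks. The 5 peaks given next, which are among those with the smallest p in each direction, were chosen after their values were seen. Other promoter peaks of IKBKE, JAK1 and SOCS3 are set beside them. The kinase gene IKBKE, whose product activates interferon regulatory factors, had the clearest loss, at chr1:206472554-206472888 inside the gene, with 3.89 and 3.25 CPM in sg1 and 17.2 and 17.7 CPM in the control. The groups were far apart, with a log2 fold change of -2.28 (SE 0.14, adjusted p = 1.18e-14). The IKBKE promoter peak, chr1:206469840-206470986, was also lower (log2 fold change -0.58, edgeR adjusted p = 4.06e-07). JAK1, the kinase of the receptors, was lower inside the gene at chr1:64915871-64916181. That peak was at 1.22 and 1.78 CPM in sg1 and 6.71 and 5.35 CPM in the control (log2 fold change -2.03, SE 0.23, adjusted p = 3.02e-08). Of 29 tested JAK1 peaks, 7 were lower and 3 higher (24.1% and 10.3%, against 16.8% and 11.5% of all). A JAK1 promoter peak, chr1:64965846-64967026, was higher (log2 fold change 0.40, edgeR adjusted p = 4.66e-04). Another, chr1:65067621-65068292, was not called (0.37, edgeR adjusted p = 0.120). SOCS3, a feedback inhibitor of JAK kinases, was lower just beyond its end at chr17:78356374-78356775 (13.9 and 13.5 CPM in sg1, 25.1 and 26.2 CPM in the control, log2 fold change -0.90, adjusted p = 2.83e-09). A SOCS3 promoter peak, chr17:78359779-78360553, was higher (23.8 and 22.2 CPM in sg1, 15.6 and 14.0 CPM in the control, log2 fold change 0.63, adjusted p = 5.89e-06). Another SOCS3 promoter peak, chr17:78360815-78361084, centred 24 bases from a gene start, was not called (log2 fold change -0.10, edgeR adjusted p = 0.621). Downstream of IKBKE, chr1:206500945-206501779 was higher, at 14.1 and 14.7 CPM in sg1 and 9.58 and 8.74 CPM in the control (log2 fold change 0.64, SE 0.12, adjusted p = 9.83e-05). The 5 chosen peaks were called in every setting tried.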

How the data were processed

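Open chromatin was measured by ATAC-seq in 4 LM2 libraries, 2 per group. The authors deposited unnormalized counts over 190348 merged peaks. Per the file headers, featureCounts 1.6.0 counted cut-site alignments as single ends, so both ends of 1 fragment can be counted. The submitters' processing notes list MACS2 2.2.4, deepTools 3.1.3, Bowtie2, DESeq2 1.32, SAMtools, CASAVA and Trimmomatic 0.39, with no role given. No source used here names the genome build; 64.8% of 22199 protein-coding promoter windows of GRCh38.p14 overlapped a peak, against 6.55% and 6.28% after shifts of 100000 bp, so RefSeq genes of that build were used. Peak positions are those of the deposited table, unconverted.

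The test was edgeR's quasi-likelihood test (edgeR 4.0.16 in R 4.3.3) on group alone, after filterByExpr and TMM scaling, adjusted by Benjamini-Hochberg over all 184717 tested peaks. The SE is that of the log2 fold change, taken as its absolute value divided by the square root of the test's F statistic. The 109 peaks that start in the first 250 kb of chromosome 1 were left out because they held a large share of counts. DESeq2 1.42.0, other scalings, filters, depths, windows and thresholds, a replicate term, and each library left out were tried. Figures were drawn with matplotlib 3.10.9 and summaries made with pandas 2.3.3 and numpy 2.4.6 in Python 3.11.15. The edgeR script was tested on simulated data.

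A member's promoter peak overlaps its RefSeq promoter window or, for the 8 members without one, lies within 1 kb of a gene end; the peak with the highest mean CPM stands for the gene. Values of every library are given for called promoter peaks, for called peaks of at least 2-fold, and for the 2 called peaks with the smallest p per role group; other peaks named complete a count or were chosen after their values were seen. The members and lists were chosen with earlier results of these data known. No genome sequence was used here, so GC content was not checked. A result at 1 signalling gene is not reported here.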

Additional observations from a re-analysis of the deposited data

How the results depend on the processing

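Member calls (35 lower and 19 higher) came to 20 and 3 in DESeq2, 23 and 9 with libraries thinned to the shallowest, 23 and 4 at an FDR of 0.01, 19 and 11 for peaks within 1 kb of a gene and 73 and 47 within 50 kb. With single libraries left out they ran from 20 to 32 lower and from 5 to 18 higher. Over all peaks, DESeq2 called 17881 lower and 8346 higher, an FDR of 0.01 left 11458 higher, and leaving out single libraries gave 18888 to 29467 lower and 11147 to 20243 higher. Signalling genes had 11 higher calls in DESeq2, 16 after thinning, 14 at an FDR of 0.01 and, within 50 kb, 64 lower and 62 higher; single libraries left out gave 12 to 24 higher. The cause of these shifts was not tested, except that wider or narrower windows and a stricter FDR change the number of peaks by construction. Of all tested peaks, 9.68% were lower and 4.52% higher in DESeq2, and 14.2% and 9.27% after thinning. No matching shares over all peaks are given here for the other windows or the stricter FDR. Those counts are therefore no result about the members or the signalling genes. With the replicate number as a block the member calls were 35 lower and 19 higher, all 54 shared with the fit without it; no label pairs the numbers, and deviations of same-numbered libraries correlated at -0.00026. The median log2 fold change of the members moved by less than the spread between replicates in every setting. Of 30 peaks named by the rule, 13 kept their direction and call in every setting with a value and 0 reversed. Depth limited weak peaks: the median peak held 73 and 64 counts in sg1 libraries and 35 and 26 in control libraries, and sg1 peaks could be counted 2.25 times as deeply, so calls at peaks near 1 CPM rested on few control counts.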
